A study of Mus musculus with 12 samples.

Results

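The comparison described here asks whether loss of Trem2 changes how macrophages respond to bafilomycin A1 (BafA1). For each gene it takes the BafA1 response of Trem2 KO cells minus the BafA1 response of WT cells, called the interaction below, and it was tested for 12052 of the 56980 features in the deposited table. The cells were mouse bone-marrow-derived macrophages (BMDM), differentiated from marrow under M-CSF, frozen, thawed and treated for 22 hours. The 4 groups of 3 libraries, 12 in all, were Trem2 KO with 25 nM BafA1, Trem2 KO with DMSO, WT with 25 nM BafA1 and WT with DMSO, the solvent of the drug. Per the labels, a biological replicate started from pooled bones, those of 3 mice in knockout studies. The labels give neither the strain, sex or age of the mice nor the deleted part of Trem2.

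BafA1 blocks the V-ATPase, the proton pump that acidifies lysosomes, so that lysosomal breakdown and the end of autophagy stall. Cells answer such a loss with transcription factors of the MiT-TFE family, which raise genes of the lysosome and the V-ATPase itself, and with the ATF4 and endoplasmic reticulum stress pathways. TREM2, on the surface of macrophages and microglia, binds lipids, signals through the adaptor TYROBP and supports survival and division of these cells under M-CSF.

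Trem2 (ENSMUSG00000023992), the targeted gene, had 149, 147 and 182 CPM, counts scaled to the size of the library, in the KO BafA1 libraries and 220, 199 and 217 CPM in KO DMSO, against 401, 400 and 401 CPM in WT BafA1 and 619, 570 and 575 CPM in WT DMSO. Every KO library lay below every WT library, and the 3′ tag of the gene was still counted in KO cells. Its interaction was 0.14 on the log2 scale (95% interval -0.09 to 0.38, edgeR adjusted p = 0.49). Libraries held 4407466 to 7074860 estimated counts, and the macrophage identity markers summed to 8510 to 13900 CPM in every library. In bulk RNA, fewer cells of a kind and less RNA per cell cannot be told apart. P-values rest on 3 libraries a group and on a spread shared by all 12.

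The interaction passed an edgeR adjusted p of 0.05 in 1062 genes, which is 8.81% of those tested. The response was more positive in KO cells in 588 of them (4.88%) and more negative in 474 (3.93%). Which direction held more genes depended on the scaling: with RLE factors 537 were more positive and 547 more negative. Genes were then sorted by the response within each genotype. In 731 genes (6.07%) the WT response passed the test and was the larger, so that the response was blunted in KO cells. In 250 genes (2.07%) the KO response passed and was the larger, and the response was enlarged. In 72 genes (0.597%) both responses passed with opposite signs, and 9 genes fell in no class. A blunted or enlarged gene could still have responses of opposite sign where the smaller one did not pass. The median ratio of KO to WT response was -1.83 in enlarged rises and -1.55 in enlarged falls, against 0.307 in blunted rises and 0.101 in blunted falls. With no threshold on the responses, 488 genes were blunted, 100 enlarged and 474 opposite. For scale, BafA1 raised 2392 genes (19.8%) and lowered 2496 (20.7%) in KO cells, and raised 2609 (21.6%) and lowered 3048 (25.3%) in WT cells.

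Blunted responses split almost evenly into 362 rises and 369 falls. Among blunted rises, 197 were still called in KO cells and 165 were not. Among blunted falls, 110 were still called in KO cells and 259 were not. Enlarged responses were 166 rises and 84 falls, of which 140 and 67 were not called in WT cells. Of the opposite responses, 48 rose in KO cells and fell in WT cells, and 24 did the reverse. An interaction of at least 1 on the log2 scale was reached by 245 blunted, 52 enlarged and 27 opposite genes. The interaction stayed past the threshold in all 12 fits that each left out 1 library for 513 genes, namely 365 blunted, 82 enlarged and 66 opposite. The class sizes moved with single libraries. Blunted genes numbered 483 without KO DMSO replicate 2. Enlarged genes numbered 145 without WT DMSO replicate 2, 150 without KO BafA1 replicate 3, 156 without WT BafA1 replicate 1 and 164 without WT BafA1 replicate 3, and up to 334 over the 12 fits. Opposite genes numbered 47 without KO DMSO replicate 2 and 125 without KO BafA1 replicate 2.

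**Figure D1:**
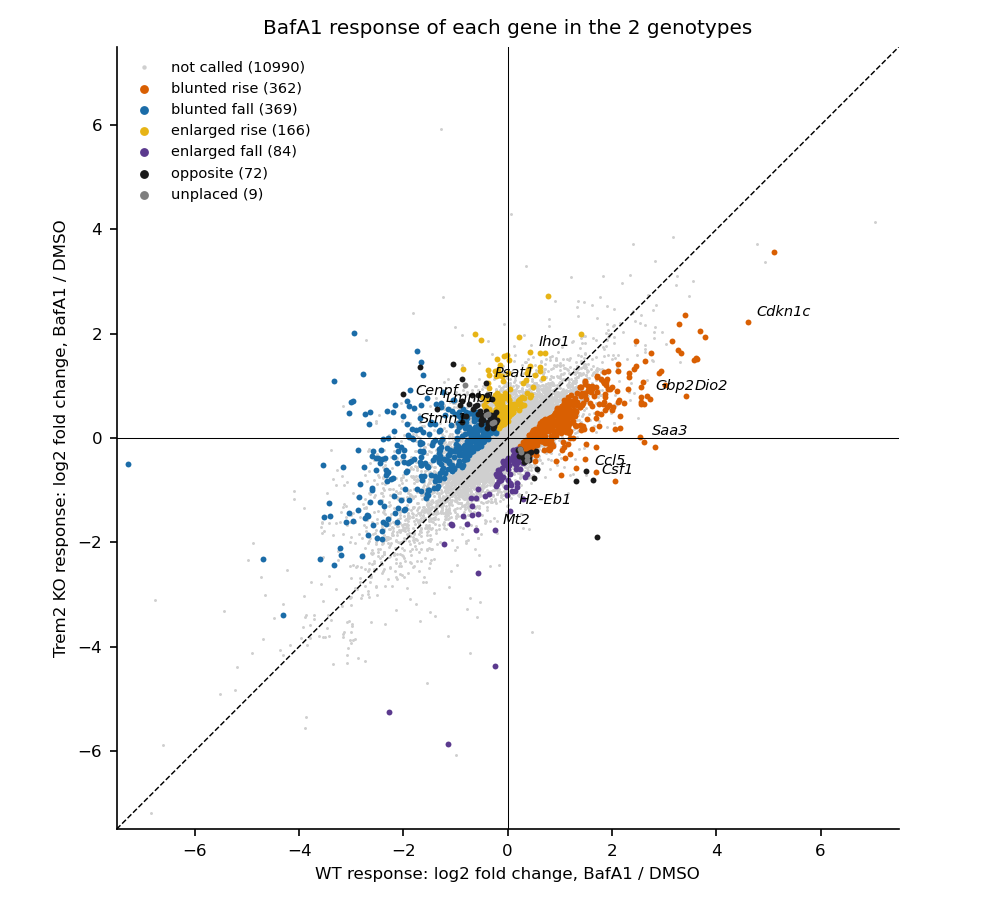
Each point is a gene, with its log2 fold change of BafA1 over DMSO in WT cells on the horizontal axis and in Trem2 KO cells on the vertical axis, coloured by class; the dashed line marks equal responses. The 362 blunted rises and 369 blunted falls lie between that line and the horizontal zero line or past it, and 1 gene outside the axes is not shown.

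In every class the genotypes were further apart in DMSO than under BafA1. Blunted falls had a median KO over WT log2 difference of 0.141 under BafA1 and -0.638 in DMSO, and blunted rises had -0.159 under BafA1 and 0.536 in DMSO. The same medians were 0.218 and -0.447 for enlarged rises, -0.239 and 0.358 for enlarged falls, 0.092 and -0.753 for opposite genes that rose in KO cells, and -0.16 and 0.537 for opposite genes that fell in KO cells. Over all tested genes they were 0.011 under BafA1 and -0.007 in DMSO. These comparisons share libraries with the interaction, so the medians are a description. Much of what follows concerns genes whose DMSO levels differed between genotypes and whose BafA1 levels lay closer together, with ER chaperones as an exception.

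**Figure D2:**
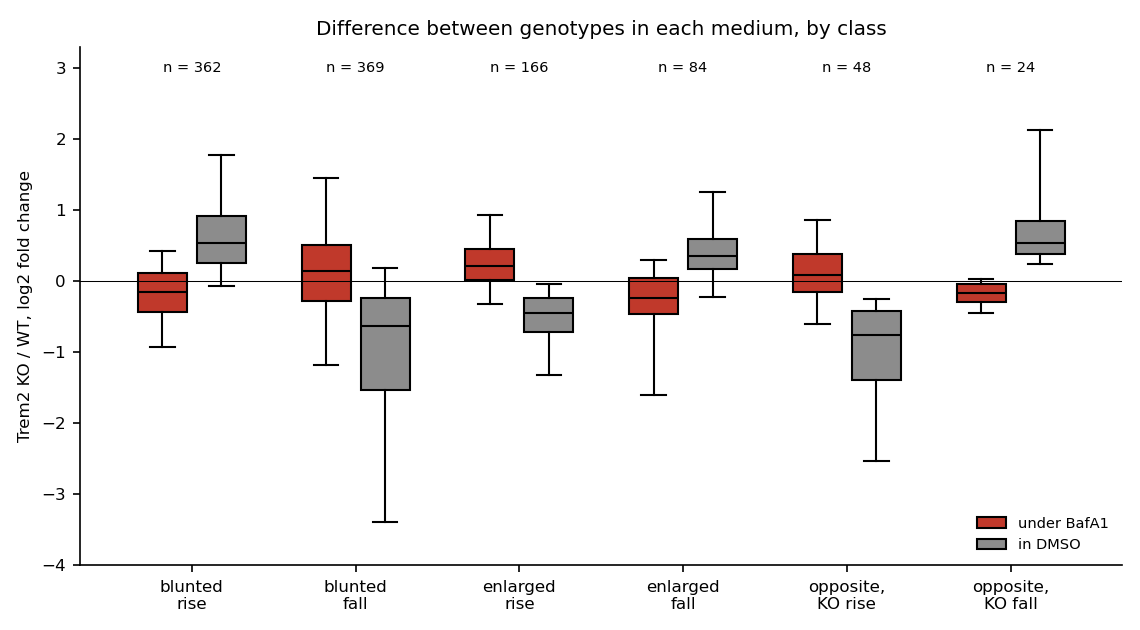
Boxes show the log2 difference of Trem2 KO over WT, under BafA1 (red) and in DMSO (grey), for the genes of each class; boxes span the quartiles, lines mark medians and whiskers the 5th to 95th percentile. The median of the grey box lies further from 0 than that of the red box in all 6 columns, for example at 0.141 under BafA1 and -0.638 in DMSO in the 369 blunted falls.

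Cell cycle genes gave the largest block of blunted falls. Of 30 genes of replication and the G1/S transition, 20 had a called interaction and in all 20 the response was more positive in KO cells, against 4.88% of all tested genes. Of 30 genes of mitosis and G2/M, 19 were called, again all more positive in KO cells. In WT cells BafA1 lowered all 30 members of both lists, whereas in KO cells it lowered 10 of the replication list and 6 of the mitosis list. The median response of the mitosis list was -0.515 in KO cells and -2.375 in WT cells on the log2 scale, and that of the replication list was -0.393 in KO cells and -1.524 in WT cells. In DMSO the KO over WT medians were -2.924 for mitosis and -1.641 for replication, so KO cells were low in these transcripts without the drug as well.

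Top2a (ENSMUSG00000020914), the topoisomerase that untangles DNA of dividing cells, had 9.81, 9.62 and 10.9 CPM in KO BafA1 and 19.9, 14.5 and 15 CPM in KO DMSO, against 38.8, 30.4 and 33.9 CPM in WT BafA1 and 158, 172 and 186 CPM in WT DMSO. The 4 groups did not overlap, and the WT DMSO libraries stood far above the rest. BafA1 lowered Top2a by 1.63-fold in KO cells and by 5.02-fold in WT cells, an interaction of 1.62 (SE 0.20, edgeR adjusted p = 2.12e-05). Mcm5 (ENSMUSG00000005410), a subunit of the replicative helicase, had 8.41, 6.21 and 7.18 CPM in KO BafA1, 9.93, 11.1 and 14.3 CPM in KO DMSO, 13.1, 13.1 and 12.7 CPM in WT BafA1 and 70, 68.2 and 55 CPM in WT DMSO. Here too only the WT DMSO libraries were high, with an interaction of 1.64 (SE 0.24, edgeR adjusted p = 0.000132).

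The promoters of these genes are shown because the lists that moved together share known promoter elements. The windows run from 250 bases before to 50 bases after the RefSeq gene start on GRCm38.p6, another build than the GRCm39 of the files, and 8740 of 12039 tested symbols had one. In Top2a (chr11:99024140-99024439, minus strand) capitals mark 2 CHR elements (TTTGAA, the cell cycle genes homology region) and 6 CCAAT boxes. In Mcm5 (chr8:75109259-75109558, plus strand) they mark 1 E2F site (TTTGGCGC, bound by the E2F factors of the G1/S transition) and 3 CCAAT boxes. Both strands were searched.
Top2a: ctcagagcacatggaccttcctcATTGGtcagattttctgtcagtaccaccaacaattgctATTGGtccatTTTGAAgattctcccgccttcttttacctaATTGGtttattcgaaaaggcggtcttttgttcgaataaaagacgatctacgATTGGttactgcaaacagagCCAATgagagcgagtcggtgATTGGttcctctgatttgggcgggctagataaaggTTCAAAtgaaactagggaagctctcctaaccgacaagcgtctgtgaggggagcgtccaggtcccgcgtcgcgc
Mcm5: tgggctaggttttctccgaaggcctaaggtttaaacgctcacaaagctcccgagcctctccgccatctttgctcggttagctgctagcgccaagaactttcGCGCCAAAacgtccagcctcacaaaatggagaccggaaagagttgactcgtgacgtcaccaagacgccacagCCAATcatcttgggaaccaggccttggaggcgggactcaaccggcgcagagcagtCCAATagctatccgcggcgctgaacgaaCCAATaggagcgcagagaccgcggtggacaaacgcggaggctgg

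The CHR element was present in 19 of 26 mitosis promoters (73.1%), against 14.4% of all 8740 windows and 3 of 24 replication promoters (12.5%). The E2F site was present in 5 of 24 replication promoters (20.8%) and 0 of 26 mitosis promoters, against 1.19% of all windows. CCAAT boxes were present in 76.9% of mitosis and 54.2% of replication promoters, against 43.5% of all. These matches describe the sequence of the windows and were not tested against the response.

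In other members too WT DMSO was highest, but the KO response did not always point down. Cenpf, a kinetochore protein, had 10.7, 6.41 and 7.87 CPM in KO BafA1, 5.78, 4.58 and 5.32 CPM in KO DMSO, 10.6, 7.52 and 10.9 CPM in WT BafA1 and 29, 30.8 and 49.1 CPM in WT DMSO. Its interaction was 2.64 (SE 0.35, edgeR adjusted p = 4.8e-05), the most positive of any gene named here. Spc25, a subunit of the NDC80 kinetochore complex, averaged 11.6 ± 1.5 CPM in KO BafA1 and 10.7 ± 2.83 in KO DMSO, against 10.5 ± 0.358 in WT BafA1 and 47.5 ± 0.833 in WT DMSO (SD, n = 3 each). The first 3 of these groups lay together and only WT DMSO stood apart, with an interaction of 2.31 (SE 0.23). Mki67, the proliferation marker, had an interaction of 2.45 (SE 0.38), and Prc1, which bundles spindle microtubules, one of 2.11 (SE 0.40). The KO responses of Cenpf, Mki67, Spc25 and Prc1 were 0.71, 0.43, 0.13 and -0.38 on the log2 scale. They did not pass the test (edgeR adjusted p = 0.0508, 0.316, 0.595 and 0.414).

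Among replication genes, Lig1, the ligase that joins Okazaki fragments, averaged 28.5 ± 1.26 CPM in KO BafA1 and 39.3 ± 6.41 in KO DMSO, against 41.8 ± 1.41 in WT BafA1 and 156 ± 3.43 in WT DMSO (SD, n = 3 each). Its fall was 1.37-fold in KO cells and 3.73-fold in WT cells (interaction 1.44, SE 0.14, edgeR adjusted p = 1.7e-06). Mcm7, of the same helicase as Mcm5, had an interaction of 1.73 (SE 0.20). Stmn1, a gene of neither list that destabilizes microtubules, had 22.1, 27.2 and 24.6 CPM in KO BafA1 and 21.7, 17.6 and 26.2 CPM in KO DMSO, against 44.6, 39.7 and 41.2 CPM in WT BafA1 and 147, 144 and 158 CPM in WT DMSO. The KO groups overlapped and both WT groups lay above them (interaction 2.02, SE 0.17, edgeR adjusted p = 2.24e-07). Levels in KO cells were low, with means below 5 CPM in 23 of 30 mitosis and 15 of 30 replication genes in KO BafA1 and in 20 and 13 of them in KO DMSO, where counting error limits the KO response.

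Cdkn1c (ENSMUSG00000037664), the CDK inhibitor p57 that restrains division, went the other way with the smallest interaction p of any gene named here. It had 286, 343 and 364 CPM in KO BafA1 and 61.5, 79.8 and 70.6 CPM in KO DMSO, against 411, 436 and 429 CPM in WT BafA1 and 17.5, 15.8 and 18.8 CPM in WT DMSO. The groups did not overlap. BafA1 raised it 4.66-fold in KO cells and 24.4-fold in WT cells, an interaction of -2.38 (SE 0.15, edgeR adjusted p = 2.92e-09).

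Blunted falls outside the cell cycle included Dnajb4, a J-domain co-chaperone, with 40.6 ± 6.4 CPM in KO BafA1 and 43.3 ± 1.51 in KO DMSO, against 45.5 ± 3.02 in WT BafA1 and 124 ± 12.2 in WT DMSO (SD, n = 3 each; interaction 1.36, SE 0.15). Clec7a, the beta-glucan receptor Dectin-1, averaged 178 ± 12.8 CPM in KO BafA1 and 191 ± 11.4 in KO DMSO, against 162 ± 14.8 in WT BafA1 and 272 ± 19 in WT DMSO (interaction 0.64, SE 0.12). Cxcl14, a chemokine, had an interaction of 0.98 (SE 0.22). Gpx1, a glutathione peroxidase, fell in both genotypes, by 2.58-fold in KO cells and 3.91-fold in WT cells (interaction 0.60, SE 0.13, edgeR adjusted p = 0.00592).

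**Figure D3:**
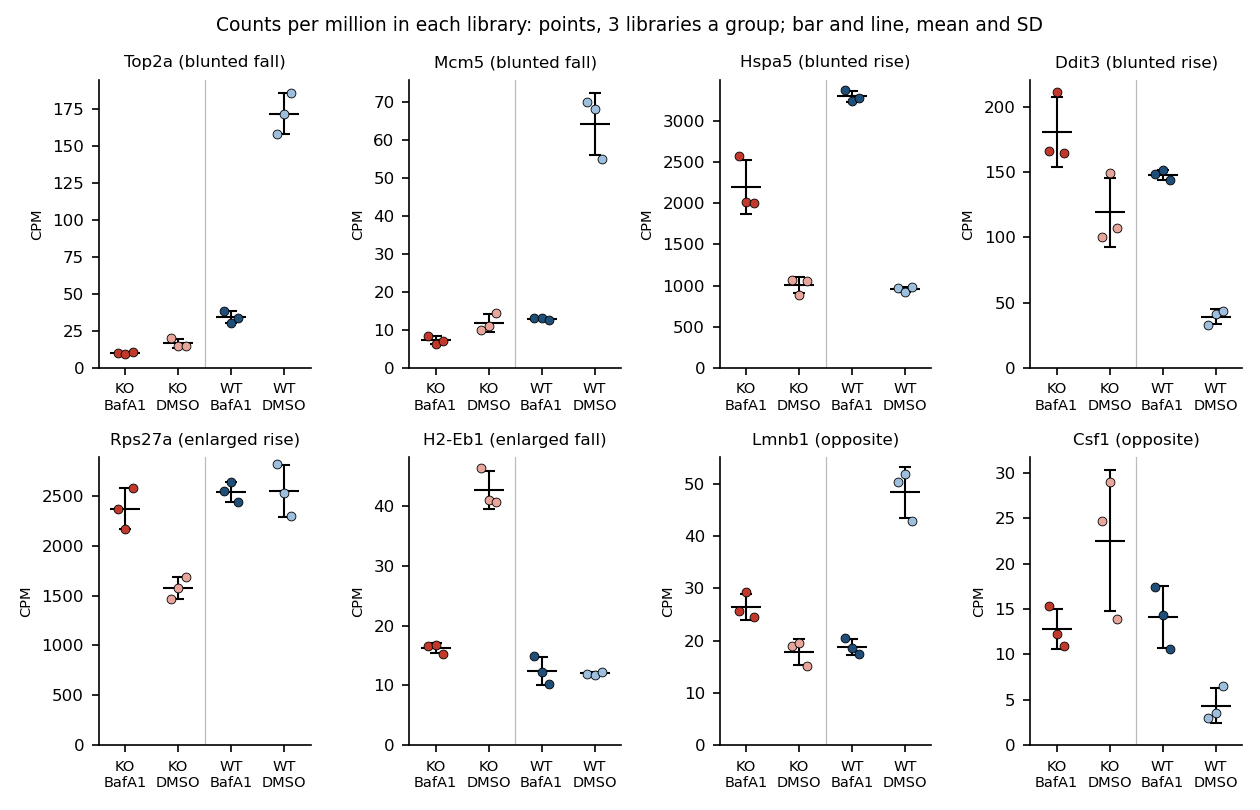
Points are the CPM of single libraries (3 a group) and the bars and lines are the mean and SD, in the order KO BafA1, KO DMSO, WT BafA1 and WT DMSO. Top2a and Mcm5 were high only in WT DMSO, Hspa5 differed mainly under BafA1 (2198 CPM in KO and 3300 CPM in WT), and H2-Eb1 was high only in KO DMSO (42.7 CPM).

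ER chaperones and genes of the unfolded protein response lay close between genotypes in DMSO and apart under BafA1. BafA1 raised 21 of 24 in KO cells and 24 of 24 in WT cells, with median log2 responses of 0.786 in KO cells and 1.203 in WT cells. The interaction was below 0 in all 24 and was called in 9, all blunted rises, against 3.93% of all genes with a more negative response. The KO over WT median of the list was -0.487 under BafA1 and -0.001 in DMSO. The number called was 18 without KO BafA1 replicate 1, the deepest library and the one with the highest Hspa5 and Sdf2l1 of its group.

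Hspa5 (ENSMUSG00000026864), the ER chaperone BiP, had 2576, 2019 and 1998 CPM in KO BafA1 and 1063, 888 and 1058 CPM in KO DMSO, against 3375, 3243 and 3283 CPM in WT BafA1 and 967, 922 and 981 CPM in WT DMSO. The DMSO groups overlapped, and every KO BafA1 library lay below every WT BafA1 library. The rise was 2.19-fold in KO cells and 3.45-fold in WT cells (interaction -0.65, SE 0.13, edgeR adjusted p = 0.00249). The promoter of Hspa5 (chr2:34771840-34772139, plus strand, GRCm38.p6) is shown for its ER stress response element (ERSE), the longest run in capitals, which begins with 1 of the 4 CCAAT boxes in the window.
Hspa5: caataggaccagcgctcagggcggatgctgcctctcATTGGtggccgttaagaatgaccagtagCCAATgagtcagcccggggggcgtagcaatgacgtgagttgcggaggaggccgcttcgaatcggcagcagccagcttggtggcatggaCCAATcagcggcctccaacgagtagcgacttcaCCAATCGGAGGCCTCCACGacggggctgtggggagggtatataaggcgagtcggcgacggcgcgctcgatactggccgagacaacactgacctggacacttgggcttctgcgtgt
The ERSE, searched on both strands, was present in 8 of 21 promoters of the ER list (38.1%), against 0.16% of all windows.

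P4hb, a protein disulfide isomerase, had 372, 288 and 320 CPM in KO BafA1 and 172, 151 and 167 CPM in KO DMSO, against 494, 470 and 485 CPM in WT BafA1 and 175, 165 and 159 CPM in WT DMSO. As in Hspa5, the genotypes of P4hb overlapped in DMSO and not under BafA1 (interaction of P4hb -0.54, SE 0.12, edgeR adjusted p = 0.00732). Sdf2l1, which works with BiP in the ER, averaged 48.3 ± 11.4 CPM in KO BafA1 and 20 ± 0.76 in KO DMSO, against 106 ± 3.11 in WT BafA1 and 24.8 ± 3.96 in WT DMSO (SD, n = 3 each; interaction -0.82, SE 0.20).

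Targets of ATF4, the transcription factor of the integrated stress response, divided. Of 24 tested, 8 had a more negative and 3 a more positive response in KO cells, against 3.93% and 4.88% of all genes, and the median response was 0.695 in KO cells and 0.974 in WT cells. Of the 8, 7 were blunted rises and 1, Atf3, named after its values were seen, was an enlarged fall (interaction -0.43, edgeR adjusted p = 0.0223). Ddit3, the transcription factor CHOP, had 166, 212 and 165 CPM in KO BafA1 and 100, 150 and 108 CPM in KO DMSO, against 148, 152 and 144 CPM in WT BafA1 and 32.5, 41.3 and 43.9 CPM in WT DMSO. It was lowest in WT DMSO, and the genotypes overlapped neither under BafA1 nor in DMSO (interaction -1.31, SE 0.18, edgeR adjusted p = 9.73e-05). Gdf15, a secreted stress factor, averaged 520 ± 101 CPM in KO BafA1 and 357 ± 120 in KO DMSO, against 226 ± 17.8 in WT BafA1 and 56.7 ± 8.4 in WT DMSO (SD, n = 3 each; interaction -1.46, SE 0.24). Atf4 itself, the pseudokinase Trib3 and the phosphatase subunit Ppp1r15a, picked after their values were seen, had interactions of -0.59, -1.03 and -1.20.

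The 3 more positive responses were those of Psat1, Shmt2 and Psph. Psat1, the aminotransferase of serine synthesis, had 21.7, 28.9 and 22.5 CPM in KO BafA1 and 12.2, 12.2 and 10.4 CPM in KO DMSO, against 49.3, 54.3 and 48.8 CPM in WT BafA1 and 72.8, 72.6 and 58.1 CPM in WT DMSO. It rose 2.08-fold in KO cells and fell 1.33-fold in WT cells, an opposite response with an interaction of 1.46 (SE 0.19, edgeR adjusted p = 3.94e-05). The groups did not overlap. Psph, the phosphatase that completes serine synthesis, and Shmt2, which passes the carbon of serine to mitochondrial folate, were enlarged rises with interactions of 0.83 and 1.17 (edgeR adjusted p = 0.0374 and 0.00118). Phgdh, the first enzyme of serine synthesis, had an interaction of 1.27 that did not pass (edgeR adjusted p = 0.0542). Psph, Shmt2 and Phgdh were named after their values were seen, and Psph passed in 4 of the 12 fits that left out a library.

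Genes of the lysosome and the V-ATPase were blunted rises in part. The V-ATPase is the drug's own target, and of its 18 tested subunits BafA1 raised 13 in KO cells and 15 in WT cells, and 6 had a called interaction, all blunted rises, against 3.93% of all genes with a more negative response. Their median response was 0.462 in KO cells and 0.667 in WT cells, and 3 were called without KO DMSO replicate 2 or without WT BafA1 replicate 1. Atp6v0d2, the d2 subunit found in macrophages and osteoclasts, had 298, 377 and 358 CPM in KO BafA1 and 328, 356 and 323 CPM in KO DMSO, against 446, 440 and 469 CPM in WT BafA1 and 277, 262 and 284 CPM in WT DMSO. The KO groups overlapped fully while the WT groups were apart (interaction -0.69, SE 0.12, edgeR adjusted p = 0.000568). Atp6v0c, the proteolipid of the ring to which BafA1 binds, rose 1.38-fold in KO cells and 1.95-fold in WT cells (interaction -0.49, SE 0.11), and Atp6v1d, of the central stalk, rose 1.4-fold in KO cells and 1.96-fold in WT cells (interaction -0.49, SE 0.10).

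Of 45 lysosomal hydrolases and cofactors, 8 were blunted rises and 1 had a more positive response in KO cells, against 3.93% of all genes with a more negative and 4.88% with a more positive response. Ctsz, the cathepsin Z gene, had 658, 645 and 558 CPM in KO BafA1 and 395, 425 and 365 CPM in KO DMSO, against 758, 753 and 703 CPM in WT BafA1 and 320, 287 and 288 CPM in WT DMSO. It rose in both genotypes, by 1.57-fold in KO cells and 2.48-fold in WT cells (interaction -0.66, SE 0.11, edgeR adjusted p = 0.000756). Gla, the alpha-galactosidase, had an interaction of -0.45 (SE 0.11).

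Of 30 lysosomal membrane and transport genes, 4 were called (13.3%), not far from the 8.81% of all genes. Slc29a3, a nucleoside transporter, averaged 229 ± 32.2 CPM in KO BafA1 and 223 ± 17.5 in KO DMSO, against 215 ± 7.58 in WT BafA1 and 120 ± 4.38 in WT DMSO (SD, n = 3 each; interaction -0.80, SE 0.13). Clcn7, the chloride-proton exchanger, had an interaction of -0.78 (SE 0.15), and the cystine exporter Ctns, named after its values were seen, had -0.68. The fourth, Slc15a3, a peptide and histidine transporter, was opposite, with 81.4, 85.7 and 76 CPM in KO BafA1 and 148, 118 and 103 CPM in KO DMSO, against 88.1, 89.5 and 91.9 CPM in WT BafA1 and 67.5, 63.5 and 52.7 CPM in WT DMSO (interaction -1.16, SE 0.16, edgeR adjusted p = 6.48e-05).

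Autophagy genes were called in 6 of 30, all blunted rises, against 3.93% of all genes with a more negative response. Sqstm1, the cargo receptor p62, had 2015, 2146 and 2004 CPM in KO BafA1 and 1346, 1598 and 1399 CPM in KO DMSO, against 1822, 1852 and 1756 CPM in WT BafA1 and 903, 958 and 938 CPM in WT DMSO. KO cells stood above WT cells in both media, and the rise was 1.42-fold in KO cells and 1.94-fold in WT cells (interaction -0.45, SE 0.10, edgeR adjusted p = 0.00874). Tecpr1, which tethers autophagosomes to lysosomes, and Tax1bp1, another cargo receptor, had interactions of -0.81 and -0.60 (SE 0.16 and 0.14). Among 14 MiT-TFE factors and Rag GTPase genes, 4 were blunted rises, against 3.93% of all genes with a more negative response: Rragd, a Rag GTPase that MiT-TFE factors induce, Flcn and its partners Fnip2 and Fnip1, which together act on Rag GTPases. No MiT-TFE factor gene was called. The list's median interaction was -0.008, with 7 of the 14 above 0. Rragd had 154, 149 and 163 CPM in KO BafA1 and 56.8, 68.7 and 48.1 CPM in KO DMSO, against 82.7, 86.3 and 82.7 CPM in WT BafA1 and 20.1, 17.9 and 20 CPM in WT DMSO. It was higher in KO cells in both media, and its log2 response was smaller there (interaction -0.71, SE 0.15, edgeR adjusted p = 0.00508), although the rise in CPM was larger in KO cells. Flcn and Fnip2 had interactions of -0.64 and -0.59 (SE 0.14 and 0.11), and Fnip1, named after its values were seen, had -0.35 and was called in 5 of the 12 fits that left out a library.

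Such a turn between the log2 and the CPM scale occurred in 17 of the 1062 called genes, 13 of them blunted and 4 enlarged.

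In glycolysis 4 of 20 genes were called, all with a more negative response in KO cells, against 3.93% of all genes. Pfkfb3, which makes the activator of phosphofructokinase, averaged 70.9 ± 6.61 CPM in KO BafA1 and 57 ± 3.2 in KO DMSO, against 79.2 ± 9.58 in WT BafA1 and 32.8 ± 5.34 in WT DMSO (SD, n = 3 each; interaction -0.93, SE 0.16, edgeR adjusted p = 0.000768). The hexokinases Hk3 and Hk2 were blunted rises with interactions of -0.76 and -0.57 (SE 0.16 and 0.14), and Hk1, named after its values were seen, had -0.52, fell in no class and was called in 5 of those 12 fits. The list's medians lay close together: BafA1 raised 17 of 20 in KO cells and 18 of 20 in WT cells, with medians of 0.797 in KO cells and 0.793 in WT cells. Pdk1, a kinase that inhibits pyruvate dehydrogenase, was an enlarged rise, with 52.3, 43.9 and 50.2 CPM in KO BafA1 and 16.6, 15.3 and 15.5 CPM in KO DMSO, against 76, 77.6 and 77.2 CPM in WT BafA1 and 55.1, 49 and 46.9 CPM in WT DMSO. It was lowest in KO DMSO and rose 3.1-fold in KO cells and 1.53-fold in WT cells (interaction 1.01, SE 0.15, edgeR adjusted p = 0.000132).

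**Figure D4:**
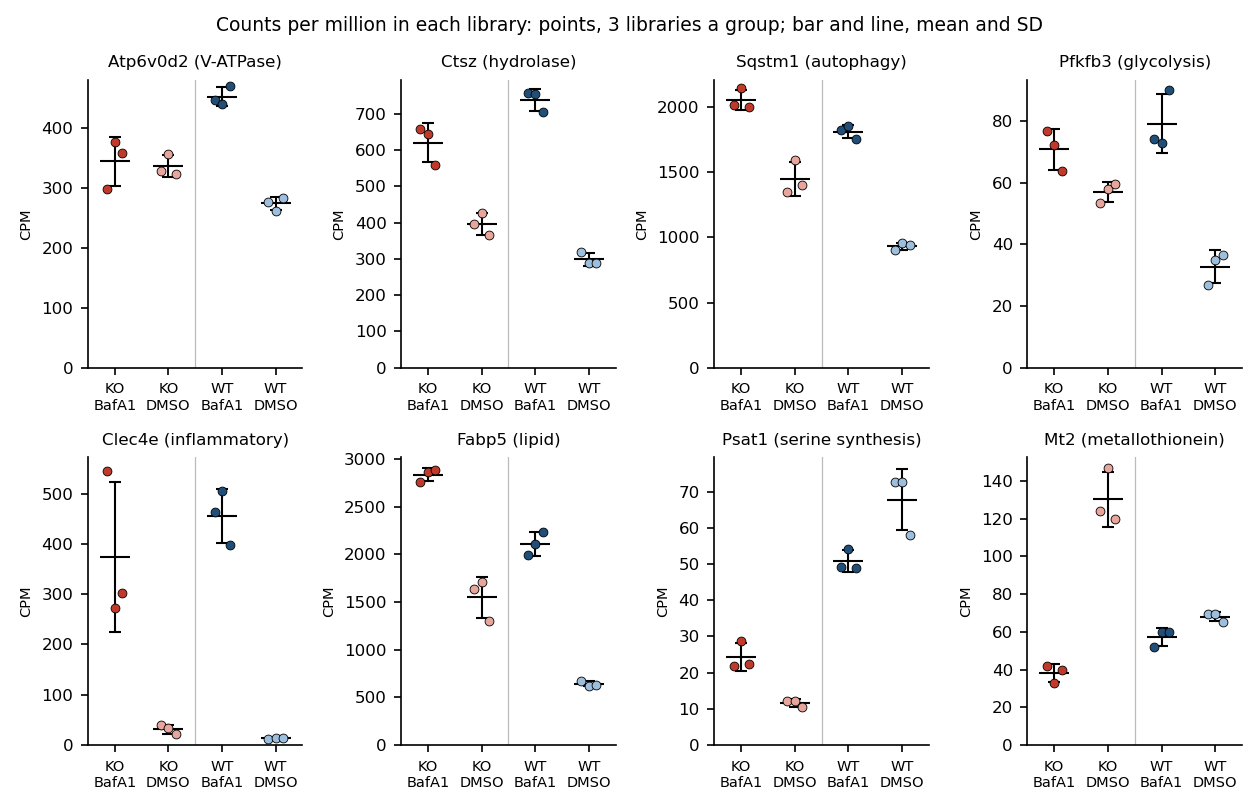
Points are the CPM of single libraries (3 a group), with mean and SD, for members of 8 gene groups in the order KO BafA1, KO DMSO, WT BafA1 and WT DMSO. Atp6v0d2 averaged 344 CPM in KO BafA1, 336 CPM in KO DMSO, 452 CPM in WT BafA1 and 274 CPM in WT DMSO, while Mt2 was highest in KO DMSO at 130 CPM.

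Called genes of the cytokine and NF-kB list were all blunted rises, while chemokine genes divided. Of 22 cytokines and NF-kB targets, 4 had a more negative response in KO cells and none a more positive one, against 3.93% and 4.88% of all genes, and BafA1 raised 10 in KO cells and 16 in WT cells. Clec4e, the lectin receptor Mincle, had 546, 273 and 303 CPM in KO BafA1 and 39.7, 33.4 and 21.5 CPM in KO DMSO, against 463, 505 and 399 CPM in WT BafA1 and 11.7, 14.7 and 13.1 CPM in WT DMSO. It overlapped between genotypes under BafA1 and was higher in every KO DMSO library than in WT DMSO, with rises of 11.9-fold in KO cells and 34.4-fold in WT cells (interaction -1.53, SE 0.33, edgeR adjusted p = 0.00498). Rela, the p65 subunit of NF-kB, averaged 57.1 ± 10.9 CPM in KO BafA1 and 62.1 ± 4.72 in KO DMSO, against 79.2 ± 3.05 in WT BafA1 and 54.5 ± 2.53 in WT DMSO (SD, n = 3 each; interaction -0.65, SE 0.15). Tnfaip2, a TNF-induced gene, and Nfkb2, the p100 subunit, which was named after its values were seen, had interactions of -0.49 and -0.69.

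Ccl3, a chemokine, had 43.2, 43.1 and 37.3 CPM in KO BafA1 and 42.3, 56.1 and 35.2 CPM in KO DMSO, against 41.6, 43.5 and 49.7 CPM in WT BafA1 and 17.7, 15.8 and 14.4 CPM in WT DMSO. The other 3 groups overlapped and WT DMSO alone was low (interaction -1.62, SE 0.20, edgeR adjusted p = 2.59e-05). Of 15 chemokine ligands, 4 were called (26.7%, against 8.81% of all genes), 3 more negative and 1 more positive in KO cells. Of 8 chemokine receptors, 1 was called in each direction (25%, against 8.81% of all genes). Ccrl2, a chemerin-binding receptor, rose 2.77-fold in KO cells and 6.22-fold in WT cells (interaction -1.17, SE 0.18). Complement C3 and the interferon-induced GTPase Gbp2 had interactions of -1.15 and -1.85 (SE 0.27 and 0.38). Saa3, an acute phase protein, had the most negative interaction of the blunted genes named here, -2.67 (SE 0.48, edgeR adjusted p = 0.00112). Its KO DMSO libraries were spread over 43.7, 15.7 and 10.2 CPM, beside 17.1, 19.4 and 30.6 CPM in KO BafA1, 61.4, 41.5 and 43.8 CPM in WT BafA1 and 9.82, 8.93 and 5.79 CPM in WT DMSO, and without 1 library its interaction ranged from -3.02 to -1.88.

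Markers of granulocytes, which share many inflammatory genes with macrophages, fell with BafA1 in both genotypes. The 16 markers, of which 9 were tested, summed to a mean of 98.9 CPM (range 73.4 to 130) in KO BafA1 and 553 CPM (417 to 703) in KO DMSO, against 55.8 CPM (51.7 to 62.6) in WT BafA1 and 184 CPM (172 to 190) in WT DMSO. The called members were 2 of 9, S100a8 and Mmp9, against 3.93% of all genes with a more negative response. They were enlarged falls with interactions of -0.82 and -2.98 that were named after their values were seen and called in 9 and 7 of those 12 fits. Mmp9 lay at the counting floor, with 1 count in each KO BafA1 library and 15, 15 and 8 counts in WT BafA1. It had 57, 30 and 21 counts in KO DMSO and 61, 48 and 64 in WT DMSO, so the size of its interaction is uncertain. T and NK cell, B cell, erythroid, stromal, and mast cell and basophil markers summed to at most 14.9 CPM in any library, with Trbc1, Car1, Hba-a1 and Tpsb2 at 0 in all 12, and dendritic cell markers to 12 to 17.9 CPM in KO BafA1, 21.3 to 24.7 in KO DMSO, 60.8 to 90.9 in WT BafA1 and 80 to 104 in WT DMSO. The 4 tested dendritic cell markers did not all follow these sums. In DMSO 2 were called higher and 1 lower in KO cells, and under BafA1 1 was called each way. Their median KO over WT log2 differences were 1.138 under BafA1 and 0.63 in DMSO, although the sums were lower in KO cells. The part of such cell types in the results was not tested.

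The remaining large blunted rises were single genes of varied function. Dio2, the deiodinase that activates thyroid hormone, had 224, 327 and 207 CPM in KO BafA1 and 129, 191 and 112 CPM in KO DMSO, against 342, 302 and 319 CPM in WT BafA1 and 26.1, 27.1 and 35.6 CPM in WT DMSO. The genotypes overlapped under BafA1 and lay far apart in DMSO. Its rise was 1.75-fold in KO cells and 10.7-fold in WT cells (interaction -2.62, SE 0.24, edgeR adjusted p = 1.03e-06). Mgll, the monoacylglycerol lipase, averaged 30.9 ± 5.24 CPM in KO BafA1 and 10.8 ± 1.87 in KO DMSO, against 82.8 ± 13.6 in WT BafA1 and 6.72 ± 1.48 in WT DMSO (SD, n = 3 each; interaction -2.08, SE 0.26). Unlike Dio2, Mgll was further apart between genotypes under BafA1 than in DMSO. Itgb3, the integrin beta 3 chain, and Gprc5b, an orphan receptor, had interactions of -1.83 and -1.98 (SE 0.24 and 0.22).

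Of 23 lipid-associated macrophage genes, 11 were called, against 8.81% of all genes. The response in KO cells was more negative in 6 (3.93% of all genes) and more positive in 5 (4.88%), so the list moved both ways (median interaction -0.045, against 0.015 over all genes). Fabp5, a fatty acid carrier, had 2760, 2865 and 2884 CPM in KO BafA1 and 1634, 1708 and 1299 CPM in KO DMSO, against 1988, 2105 and 2236 CPM in WT BafA1 and 670, 621 and 632 CPM in WT DMSO. The groups did not overlap, KO cells were higher in both media, and the rise was 1.83-fold in KO cells and 3.29-fold in WT cells (interaction -0.84, SE 0.12, edgeR adjusted p = 0.000132). Fabp4, its relative, had an interaction of -0.79 (SE 0.14), and Jun, of the AP-1 factors and outside that list, had one of -1.02 (SE 0.14). Gpnmb and Spp1, both typical of foamy macrophages, were blunted rises with interactions of -0.39 and -0.47 (SE 0.12 each, edgeR adjusted p = 0.0388 and 0.0188), called in 6 and 9 of the 12 fits that left out a library. Tyrobp, the adaptor of TREM2, averaged 1056 ± 142 CPM in KO BafA1 and 1050 ± 77.5 in KO DMSO, against 785 ± 23.4 in WT BafA1 and 1069 ± 92.9 in WT DMSO (interaction 0.45, SE 0.13, edgeR adjusted p = 0.0272), and was called in 6 of those 12 fits.

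Ribosomal protein genes formed the largest block of enlarged rises. Of 87 tested, 21 were called, all with a more positive response in KO cells (4.88% of all genes), as 12 enlarged rises, 6 blunted falls and 3 opposite responses, and 84 of the 87 interactions were above 0. The median response was 0.174 in KO cells and -0.138 in WT cells, and BafA1 raised 33 in KO cells and 2 in WT cells. Differences were small and the count depended on single libraries, from 7 to 36 over the 12 fits that left one out. Ribosomal protein genes took 5.38% to 6.1% of counts in KO BafA1 and 4.79% to 5.18% in KO DMSO, against 5.57% to 5.92% in WT BafA1 and 5.82% to 6.52% in WT DMSO.

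Rps27a, a ribosomal protein fused to ubiquitin, had 2372, 2169 and 2578 CPM in KO BafA1 and 1469, 1579 and 1685 CPM in KO DMSO, against 2555, 2638 and 2441 CPM in WT BafA1 and 2823, 2536 and 2304 CPM in WT DMSO. KO DMSO alone stood apart (interaction 0.59, SE 0.12, edgeR adjusted p = 0.00299). Rpl10a and Rpl3, of the large subunit, were opposite, with log2 responses of 0.19 and 0.23 in KO cells and -0.40 and -0.27 in WT cells. The pseudogenes Rps27a-ps2, Rpl30-ps9, Rplp2-ps1 and Rps25-ps1, enlarged rises with interactions of 1.20, 1.14, 1.14 and 1.10, and Rpl30-ps10, opposite with 1.41, share nearly identical sequence with their parent genes. Counts of ribosomal protein genes and pseudogenes are uncertain where the authors' quantifier could split such reads. The WT log2 responses of Rps27a-ps2, Rpl30-ps9, Rplp2-ps1 and Rps25-ps1 were -0.41, -0.40, -0.41 and -0.46 and did not pass.

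Iho1, known for its role in meiotic recombination, had the largest interaction among the enlarged rises named here, with 109, 111 and 158 CPM in KO BafA1 and 34, 42.2 and 43.3 CPM in KO DMSO, against 71.5, 81.5 and 66.2 CPM in WT BafA1 and 52.1, 58.3 and 51.9 CPM in WT DMSO (interaction 1.22, SE 0.18, edgeR adjusted p = 0.000212). Tfrc, the transferrin receptor for iron uptake, had 576, 533 and 511 CPM in KO BafA1 and 403, 384 and 349 CPM in KO DMSO, against 264, 278 and 254 CPM in WT BafA1 and 288, 305 and 257 CPM in WT DMSO. KO cells were higher in both media and only they rose (interaction 0.61, SE 0.11, edgeR adjusted p = 0.0015). Ncoa4, the receptor for ferritin breakdown, was an enlarged fall, with 193 ± 5.03 CPM in KO BafA1 and 272 ± 2.2 in KO DMSO, against 166 ± 1.83 in WT BafA1 and 174 ± 5.25 in WT DMSO (SD, n = 3 each; interaction -0.42, SE 0.09).

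MHC class II genes, which present antigen, fell more in KO cells where they were called. Of 7 tested, all interactions were below 0 and 3 were called, H2-Eb1, H2-Aa and H2-Ab1, against 3.93% of all genes with a more negative response, with a list median of -0.977. H2-Eb1 had 16.5, 16.8 and 15.3 CPM in KO BafA1 and 46.4, 41 and 40.7 CPM in KO DMSO, against 14.9, 12.2 and 10.2 CPM in WT BafA1 and 12, 11.8 and 12.3 CPM in WT DMSO. KO DMSO alone was high, and the gene fell 2.62-fold in KO cells and was at 0.05 (SE 0.15) on the log2 scale in WT cells (interaction -1.44, SE 0.20, edgeR adjusted p = 8.66e-05). H2-Aa had an interaction of -1.16 (SE 0.21), and H2-Ab1, named after its values were seen, had -0.98.

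Mt2, a metallothionein that binds zinc, had 42, 33.1 and 39.6 CPM in KO BafA1 and 124, 147 and 120 CPM in KO DMSO, against 51.7, 59.7 and 60.1 CPM in WT BafA1 and 69.6, 69.2 and 65.1 CPM in WT DMSO. It fell 3.39-fold in KO cells and 1.19-fold in WT cells (interaction -1.51, SE 0.14, edgeR adjusted p = 1.13e-06). Il1rn, the interleukin-1 receptor antagonist, averaged 195 ± 34.2 CPM in KO BafA1 and 436 ± 84.5 in KO DMSO, against 121 ± 15 in WT BafA1 and 99.4 ± 3.3 in WT DMSO (SD, n = 3 each; interaction -1.45, SE 0.18). Slc66a1, which exports basic amino acids from lysosomes, and the mitochondrial transcript mt-Co1 were enlarged falls with interactions of -1.05 and -0.45 (SE 0.25 and 0.10). All genes with symbols starting in mt- together took 4.22% to 4.3% of counts in KO BafA1 and 5.74% to 7.36% in KO DMSO, against 3.72% to 3.84% in WT BafA1 and 4.25% to 4.8% in WT DMSO. The mitochondrially encoded mRNAs did not share this shape. Of 13 tested, 1 interaction was called (7.69%, against 8.81% of all genes). In DMSO 1 of them was called higher and 4 lower in KO cells, with a median log2 difference of -0.157.

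Opposite responses were the smallest class. Lmnb1, lamin B1 of the nuclear envelope, had 25.6, 29.2 and 24.6 CPM in KO BafA1 and 18.9, 19.5 and 15 CPM in KO DMSO, against 20.5, 18.6 and 17.4 CPM in WT BafA1 and 50.4, 51.9 and 42.9 CPM in WT DMSO. KO DMSO and WT BafA1 overlapped at the low end, KO BafA1 lay above them and WT DMSO highest. It rose 1.48-fold in KO cells and fell 2.56-fold in WT cells (interaction 1.92, SE 0.18, edgeR adjusted p = 1.13e-06). Mms22l, which helps repair stalled replication forks, had an interaction of 1.58 (SE 0.26). Tgfbi, a matrix protein, had 129, 71.1 and 86.1 CPM in KO BafA1 and 87.5, 37.8 and 62.5 CPM in KO DMSO, against 126, 99.2 and 118 CPM in WT BafA1 and 215, 205 and 229 CPM in WT DMSO, and its KO libraries overlapped between media (interaction 1.56, SE 0.27, edgeR adjusted p = 0.000887).

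In the other direction, Csf1, the gene of M-CSF itself, had 15.3, 12.2 and 10.9 CPM in KO BafA1 and 24.7, 29 and 13.9 CPM in KO DMSO, against 17.4, 14.3 and 10.6 CPM in WT BafA1 and 2.99, 3.54 and 6.53 CPM in WT DMSO. The KO groups overlapped through 1 library in DMSO, and WT DMSO lay below all others (interaction -2.45, SE 0.37, edgeR adjusted p = 0.000246). Ccl5, a T cell attracting chemokine, averaged 19.3 ± 0.985 CPM in KO BafA1 and 29.9 ± 7.88 in KO DMSO, against 19.5 ± 1.35 in WT BafA1 and 6.92 ± 1.23 in WT DMSO (SD, n = 3 each; interaction -2.14, SE 0.25, edgeR adjusted p = 1.25e-05). The cytokine receptor subunit Csf2rb2 and Raph1, which organizes actin at the cell edge, had interactions of -0.82 and -0.79 (SE 0.13 each).

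Sterol genes responded strongly and with few called differences. Of 24 genes of cholesterol synthesis and SREBP2, BafA1 raised 20 in KO cells and 24 in WT cells, with median log2 responses of 1.755 in KO cells and 1.556 in WT cells. One interaction was called, that of Tm7sf2, a sterol reductase (-0.57, edgeR adjusted p = 0.0486), which passed in 2 of the 12 fits without a library and was named after its values were seen. Of 11 LXR targets, which export sterol, 8 fell in KO cells and 7 in WT cells, and no interaction was called by edgeR, DESeq2 or limma-voom, with 3 at an unadjusted p below 0.05 in edgeR. Of 39 interferon-stimulated genes, BafA1 lowered 36 in KO cells and 31 in WT cells, and 2 interactions were called (5.13%, against 8.81% of all genes), Gbp2 above and Ifi203 (-0.55, named after its values were seen). For Apoe, the lipoprotein that carries lipid out of macrophages, the interaction was 0.14 (95% interval -0.28 to 0.56), for Lpl, the lipoprotein lipase, -0.38 (-0.77 to 0.01), and for Itgax, the integrin CD11c, 0.50 (-0.13 to 1.13). For Csf1r, the M-CSF receptor, it was -0.27 (-0.52 to -0.02, edgeR adjusted p = 0.183). Of 21 macrophage identity genes, 3 were called (14.3%, against 8.81% of all genes), Tyrobp above, Cd14 (-0.60) and Cx3cr1 (0.94), the last 2 named after their values were seen and called in 5 and 3 of those 12 fits.

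**Figure D5:**
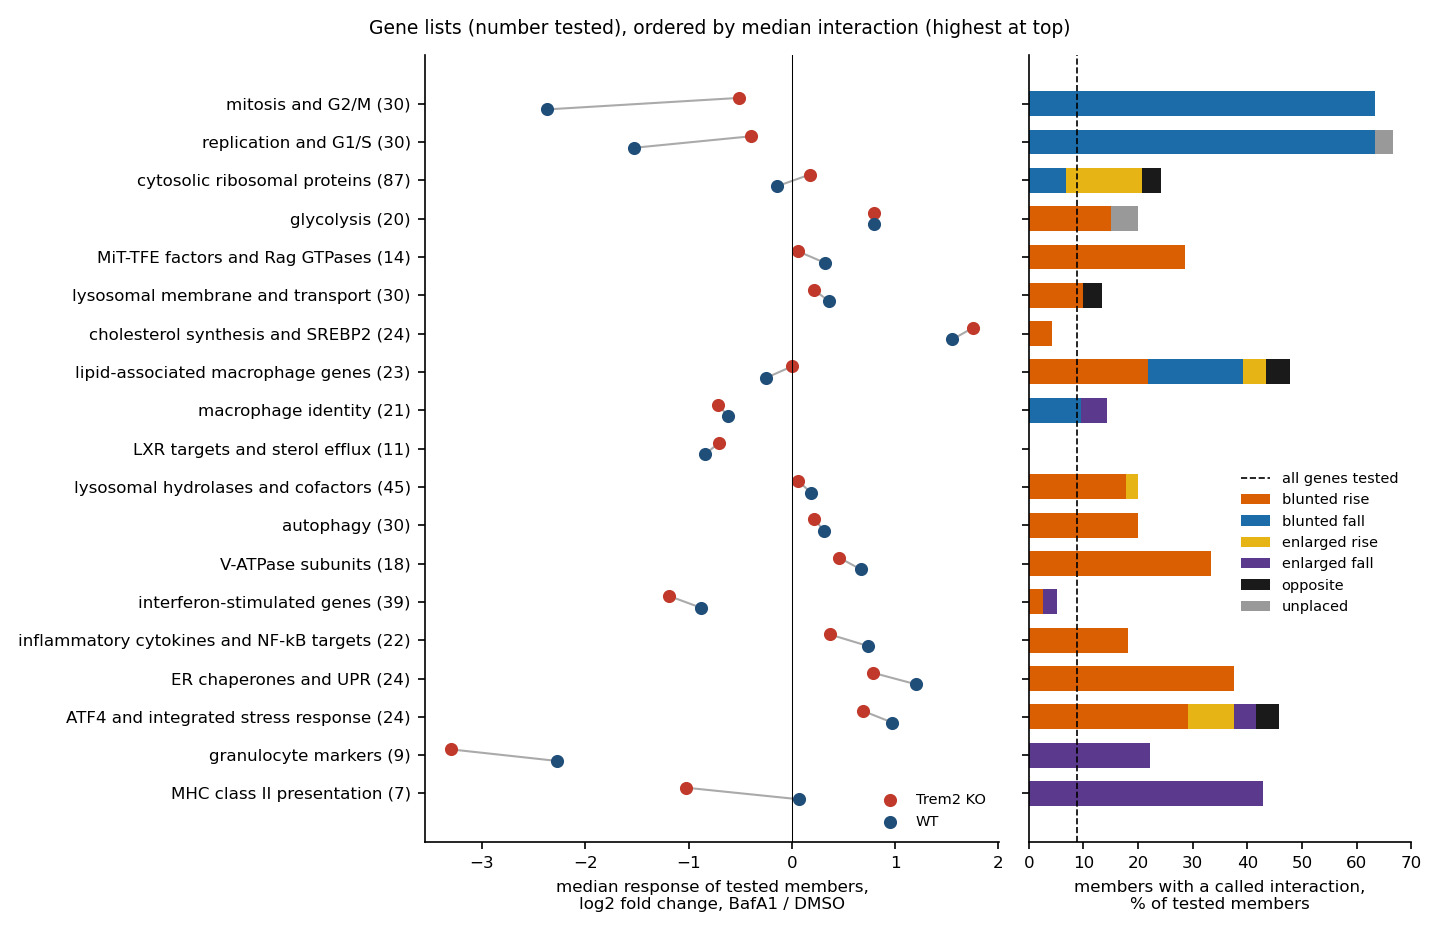
The left panel shows the median log2 response of the tested members of each gene list in Trem2 KO (red, upper point) and WT (blue, lower point), and the right panel shows the share of members with a called interaction by class, with the 8.81% of all tested genes as a dashed line. The mitosis list lay at -0.515 in KO cells and -2.375 in WT cells, the MHC class II list at -1.02 in KO cells and 0.068 in WT cells, and the cholesterol list at 1.755 in KO cells and 1.556 in WT cells.

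At the threshold itself, S100a4, a calcium-binding protein, and Rhob, a small GTPase, were just inside with interactions of 0.44 and -0.60 and edgeR adjusted p of 0.0499 and 0.05. Gng2, a G protein subunit, and Ttc32 were just outside with -0.39 and 0.56 and edgeR adjusted p of 0.0502 each.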

How the data were processed

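RNA of 12 BMDM cultures was made into 3′ mRNA libraries with unique molecular identifiers, per the labels' protocols. The authors deposited estimated counts per gene, made with Salmon on GRCm39 per the submitters' processing notes, and log2 CPM values, which were not used. The identifiers serve to remove PCR duplicates per the labels; neither the annotation nor Salmon's version is stated there. Of the deposited counts above 0, 42% were not whole (tolerance 1e-06), and all were rounded. An integrity number per library and gene symbols were deposited by the authors in 2 other tables.

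Counts were fitted with edgeR 4.0.16 in R 4.3.3 (TMM factors, filterByExpr with minimum counts of 10 and 15 in total, quasi-likelihood test), with 1 mean for each of the 4 groups over all 12 libraries. P-values were adjusted by Benjamini-Hochberg over 12052 genes, with a threshold of 0.05. CPM printed in the text use TMM-scaled library sizes. Libraries held 4407466 to 7074860 counts, with a common biological coefficient of variation of 0.08. Replicates of a group differed by more than sampling noise. On data simulated for this interaction over 12052 genes with 200 changed, changes of 1.5-fold were recovered in 23.9%, of 2-fold in 58.2% and of 4-fold in 77.3% of cases, and 5.36% of calls were false. The simulation changed fewer genes than the 1062 called in the data. The adjusted threshold depends on that share, so these rates need not hold for the data. Alternatives were RLE, upper-quartile and no scaling factors, DESeq2 1.42.0, limma-voom (limma 3.58.1), other filters, 2 replicate blocks and leaving out each library.

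Genes were named by rule from those called in the fit, in all 12 fits without 1 library and in both block fits, reaching 20 CPM as the mean of a group, predicted gene symbols aside. These were the 5 with the largest interaction per class and direction and the 3 with the smallest p in each gene list, to which a panel of TREM2-related genes and the 2 genes on either side of the threshold were added. The text names a part of them. Genes outside the rule are said to be so. The members and lists were chosen with earlier results of these data known.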

Additional observations from a re-analysis of the deposited data

Results flagged for a closer look

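The BafA1 response differed between Trem2 KO and WT cells in 1062 genes. The values below are interactions on the log2 scale of genes past the edgeR threshold in the test of the difference between the genotypes.

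Blunted falls named above had interactions of Cenpf 2.64, Mki67 2.45, Spc25 2.31, Prc1 2.11, Stmn1 2.02, Mcm7 1.73, Mcm5 1.64, Top2a 1.62, Lig1 1.44, Dnajb4 1.36, Cxcl14 0.98, Cx3cr1 0.94, Clec7a 0.64, Gpx1 0.60, Tyrobp 0.45 and S100a4 0.44.

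Blunted rises had interactions of Saa3 -2.67, Dio2 -2.62, Cdkn1c -2.38, Mgll -2.08, Gprc5b -1.98, Gbp2 -1.85, Itgb3 -1.83, Ccl3 -1.62, Clec4e -1.53, Gdf15 -1.46, Ddit3 -1.31, Ppp1r15a -1.20, Ccrl2 -1.17, C3 -1.15, Trib3 -1.03, Jun -1.02, Pfkfb3 -0.93, Fabp5 -0.84, Sdf2l1 -0.82, Tecpr1 -0.81, Slc29a3 -0.80, Fabp4 -0.79, Clcn7 -0.78, Hk3 -0.76, Rragd -0.71, Atp6v0d2 -0.69, Nfkb2 -0.69, Ctns -0.68, Ctsz -0.66, Hspa5 -0.65, Rela -0.65, Flcn -0.64, Tax1bp1 -0.60, Fnip2 -0.59, Atf4 -0.59, Hk2 -0.57, Tm7sf2 -0.57, P4hb -0.54, Atp6v1d -0.49, Atp6v0c -0.49, Tnfaip2 -0.49, Spp1 -0.47, Gla -0.45, Sqstm1 -0.45, Gpnmb -0.39 and Fnip1 -0.35.

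Enlarged rises had interactions of Iho1 1.22, Rps27a-ps2 1.20, Shmt2 1.17, Rpl30-ps9 1.14, Rplp2-ps1 1.14, Rps25-ps1 1.10, Pdk1 1.01, Psph 0.83, Tfrc 0.61 and Rps27a 0.59. Enlarged falls had interactions of Mmp9 -2.98, Mt2 -1.51, Il1rn -1.45, H2-Eb1 -1.44, H2-Aa -1.16, Slc66a1 -1.05, H2-Ab1 -0.98, S100a8 -0.82, Rhob -0.60, Cd14 -0.60, Ifi203 -0.55, mt-Co1 -0.45 and Ncoa4 -0.42. That of Mmp9 rests on 1 count in each KO BafA1 library. Atf3, also an enlarged fall, is given above with its value.

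Opposite responses with a rise in KO cells had interactions of Lmnb1 1.92, Mms22l 1.58, Tgfbi 1.56, Psat1 1.46, Rpl30-ps10 1.41, Rpl10a 0.59 and Rpl3 0.49, and those with a fall in KO cells had Csf1 -2.45, Ccl5 -2.14, Slc15a3 -1.16, Csf2rb2 -0.82 and Raph1 -0.79. Hk1, which fell in no class, had -0.52.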

How the results depend on the processing

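No other scaling, tool, filter or block changed the total of 1062 calls by over 1.5 times (922 to 1481). Of 106 named genes followed under the alternatives, 98 were past the threshold. Atf3, named above, was not among the 106. Over 2225 values of named genes under alternatives, 2091 kept direction and side of the threshold, 111 lost the call, 22 gained it and 1 reversed: Apoe, -0.14 without KO BafA1 replicate 2, over a range of -0.14 to 0.31 without 1 library. The cause of the changes below was not tested. The majority direction turned with RLE factors (537 more positive, 547 more negative), with a filter of 10 CPM in 3 libraries (548 and 555), without KO BafA1 replicate 1 (469 and 488) and without KO BafA1 replicate 3 (341 and 374). Requiring an interaction of at least 1 left 325 calls (216 more positive, 109 more negative): 245 blunted (88 rises, 157 falls), 52 enlarged (37 rises, 15 falls) and 27 opposite. With a threshold of 0.01 on the responses 19 were opposite. With no threshold on them, 474 were opposite, 100 enlarged (60 rises, 40 falls) and 212 blunted falls. Called ribosomal protein genes numbered 37 with library size alone and 32 with no filter. Called cholesterol genes numbered 0 with upper-quartile factors, library size alone, DESeq2, limma-voom and no filter. Interferon-stimulated genes numbered 4 with limma-voom and with no filter, macrophage identity genes 5 with RLE factors and DESeq2 and 6 with the 10 CPM filter, and granulocyte markers 1 with DESeq2, limma-voom and the 10 CPM filter.

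Same-numbered libraries were not treated as pairs in the main fit, because the labels name no block. Their deviations correlated at 0.074, 0.164 and 0.116 between KO BafA1 and KO DMSO. Between WT BafA1 and WT DMSO they correlated at -0.005, 0.043 and 0.061. Whether a shared number marks a shared pool or day was not tested. With the replicate block the total was 1031 and interferon-stimulated genes numbered 4. With the replicate block within genotype the total was 1481, with 377 enlarged (139 falls) and 124 opposite genes. That block gave 15 ER, 17 ATF4, 7 lysosomal membrane, 7 glycolysis, 40 ribosomal protein, 2 cholesterol, 7 interferon-stimulated and 6 macrophage identity calls.

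Leaving out 1 library gave 693 to 1200 calls, 341 to 692 more positive and 315 to 512 more negative. The fewest came without WT DMSO replicate 2, and the fewest more positive ones without KO BafA1 replicate 3 (367 without KO DMSO replicate 2, 391 without WT BafA1 replicate 3). Blunted genes numbered 483 to 751 (falls 223 to 363), enlarged ones 145 to 334 (rises 79 to 229, falls 44 to 105) and opposite ones 47 to 125. The called list members ranged over 6 to 18 for ER, 3 to 7 for V-ATPase, 5 to 9 for hydrolases, 4 to 8 for lysosomal membrane, 3 to 7 for glycolysis, 7 to 36 for ribosomal proteins, 0 to 3 for cholesterol, 0 to 1 for LXR targets, 1 to 4 for interferon-stimulated genes, 0 to 5 for macrophage identity and 0 to 2 for granulocytes. Depth limits the low genes, such as the 23 of 30 mitosis genes with means below 5 CPM in KO BafA1.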

Other observations

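Proteasome, HIF and complement genes also moved with BafA1. BafA1 raised 19 of 31 proteasome subunits in KO cells and 16 in WT cells, with median log2 responses of 0.308 in KO cells and 0.233 in WT cells, and 2 of the 31 interactions were called (6.45%, against 8.81% of all tested genes). HIF targets outside glycolysis rose in 14 of 19 in KO cells and 14 of 19 in WT cells, with 3 interactions called (15.8%). Complement genes fell in 10 of 12 in both genotypes, with medians of -1.804 in KO cells and -1.994 in WT cells, and 4 interactions were called (33.3%), 2 in each direction.

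Targets of ERK signalling differed between genotypes in both media. KO cells were called lower in 14 of 20 under BafA1 and in 13 of 20 in DMSO. Of all 12052 tested genes, 1716 were called lower in KO cells under BafA1 and 1983 in DMSO. The medians of the ERK list were -0.72 under BafA1 and -0.713 in DMSO. Of its 20 interactions 4 were called (20%, against 8.81% of all tested genes). The osteoclast markers, genes of the bone-resorbing relatives of macrophages, summed to 370 to 449 CPM in KO BafA1 and 383 to 415 CPM in KO DMSO, against 541 to 571 CPM in WT BafA1 and 364 to 384 CPM in WT DMSO. The V-ATPase subunit gene Atp6v0d2, described above, made up 71.9% to 86% of the tested members' sum in each library. The other 7 tested members summed to 69.5 to 72.3 CPM in KO BafA1 and 57.8 to 77.6 CPM in KO DMSO, against 101 to 103 CPM in WT BafA1 and 96.7 to 107 CPM in WT DMSO. Without Atp6v0d2 the sums were thus lower in KO cells in both media, and the media overlapped within each genotype. Of the 8 interactions 3 were called (37.5%), those of Atp6v0d2, Itgb3 and Mmp9 (the last named after its values were seen), all with a more negative response in KO cells, against 3.93% of all tested genes. Mmp9 had 1 count in each KO BafA1 library.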
